A study of Mus musculus with 8 samples.

Results

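The genes described here are 10 genes of the MHC class I peptide loading pathway: B2m, H2-K1, H2-D1, H2-T23, Tap1, Tap2, Tapbp, Tapbpl, Erap1 and Nlrc5. They were chosen by name, with earlier results of these data known. Every probe whose gene name in the scanner output was one of the 10 was taken, which gave 12 of the 39429 probes of the array. H2-K1 and Nlrc5 had 2 probes each and the other genes 1 each. The RNA was that of IEC10, a line of immortalized gut epithelial cells of the mouse that was made from a transgenic mouse that carries firefly luciferase under the Mx2 promoter, grown for 21 days on transwell inserts until polarized and confluent. The control cells were left without IFN (2 arrays, replicates 2 and 3), the IFN-λ2 group received 20 ng/mL of IFN-λ2 (3 arrays) and the IFN-β group received 500 U/mL of IFN-β (3 arrays), each for 9 h. The doses are in different units, and per the study each gave a submaximal Mx2 response not far from the maximum in these cells. A difference between the cytokines is therefore a difference between these doses at this time. All arrays come from 1 cell line, whose mouse strain and MHC haplotype are not given in the sources used here. The labels do not say whether the replicates were separate cultures, so the p-values measure only the spread between these arrays, which may be technical.

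MHC class I molecules display peptides from inside the cell to CD8 T cells and consist of a heavy chain (H2-K1 and H2-D1 in the mouse, and the nonclassical H2-T23), the light chain β2-microglobulin (B2m) and the peptide. Peptides made by the proteasome enter the endoplasmic reticulum through the TAP transporter (Tap1, Tap2), are trimmed there by the aminopeptidase Erap1, and are fitted to the heavy chain with the help of tapasin (Tapbp) or its relative Tapbpl. Nlrc5 is a nuclear transactivator of class I genes, and interferons of both types are known to raise much of this pathway.

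The RefSeq promoter table (GRCm38.p6, 250 bases before to 50 after a gene's start) matched 7 of the 10 genes: B2m, H2-K1, H2-D1, H2-T23, Tap1, Tapbp and Erap1. The windows that hold a motif named in interferon or NF-κB responses are shown. Tap1 and Tapbp, which also rose with both interferons, held no such match, and a link between matches and changes was not tested. Capitals mark the matches, and each window is printed 5′ to 3′ on the strand of its gene.
B2m, chr2:122147538-122147580, plus strand: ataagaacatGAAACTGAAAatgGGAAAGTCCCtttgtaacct
H2-T23, chr17:36032806-36032835, minus strand: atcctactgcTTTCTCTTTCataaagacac
Erap1, chr13:74639839-74639868, plus strand: ccaccttcacTTTCACTTTCggtcccgggc
H2-K1, chr17:34000419-34000468, minus strand: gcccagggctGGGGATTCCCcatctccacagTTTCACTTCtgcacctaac
H2-D1, chr17:35262913-35262962, plus strand: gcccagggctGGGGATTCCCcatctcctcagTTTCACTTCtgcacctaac

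The interferon response element was searched as GAAANNGAAA on both strands. It was found in B2m, starting 139 bases before the gene's start, in H2-T23, 124 bases before it, and in Erap1, where it began 4 bases before the start and ran past it, and in 3.99% of all 27025 genes with a promoter of that length in the table. The NF-κB motif, searched as GGGNNTTNCC on both strands, was found in B2m, H2-K1 and H2-D1 and in 5.48% of all genes. A shorter form of the interferon element, GAANNGAAA, was added after the promoters had been read, and was found in H2-K1 and H2-D1 and in 8.68% of all genes. In the B2m window the NF-κB match lies right beside the interferon element, and no 2 matches in these windows overlap. The H2-K1 and H2-D1 windows are the same at 49 of 50 bases, with the substitution A28T counted from the 5′ end with H2-K1 as the reference. CCAAT, the NF-Y motif, was found in 6 of the 7 genes (all but Erap1) and in 41.1% of all genes, and TTCNNNGAA, the STAT motif, in none of the 7 and in 9.55% of all genes. A match describes these letters only.

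The arrays measure each gene through probes of 60 bases. H2-K1 and H2-T23 share part of their probe sequence, so these probes are shown with the shared run of 29 bases in capitals, together with the upstream Nlrc5 probe, which rose over control as the downstream one did but stood the other way round between the cytokines.
H2-K1 upstream probe, chr17:34133984-34134043, minus strand: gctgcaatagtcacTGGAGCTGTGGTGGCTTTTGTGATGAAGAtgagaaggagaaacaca
H2-T23 probe, chr17:36167338-36167574, minus strand: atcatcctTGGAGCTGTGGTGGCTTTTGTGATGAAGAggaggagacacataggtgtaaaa
Nlrc5 upstream probe, chr8:97030478-97030624, plus strand: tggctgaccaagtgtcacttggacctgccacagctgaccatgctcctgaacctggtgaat

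Probe positions are those of the array's own annotation on mm9, and a gene model of that build was not used here, so exon and untranslated positions are not given. The H2-T23 probe spans 237 bases of genome and the upstream Nlrc5 probe 147, both longer than the probe itself. Aligned without gaps, the H2-K1 and H2-T23 probes match at 39 of 54 bases, so class I transcripts other than the named one may add to either signal, and this was not tested. None of the 12 probes matched any other probe of the array at 50 or more of 60 bases (shifts of up to 10 bases), and 10 of the 12 shared no run of 20 bases with another probe. The upstream H2-K1 probe and the H2-T23 probe each matched a probe of another gene name at 44 bases. Each of them shared a run of at least 20 bases with 2 other probes. The other positions were chr2:121978401-121978460 for B2m, chr17:34133055-34133114 for the downstream H2-K1 probe, chr17:35403886-35403945 for H2-D1, chr17:34330854-34330913 for Tap1, chr17:34353116-34353175 for Tap2, chr17:34065963-34066022 for Tapbp, chr6:125174614-125174673 for Tapbpl, chr13:74828969-74829028 for Erap1 and chr8:97051105-97051164 for the downstream Nlrc5 probe. The downstream Nlrc5 probe lies 20480 bases beyond the upstream one and holds the letters AATAAA at its bases 31 to 36. These are the letters of a polyadenylation signal, and whether they act as one here was not tested.

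Signals are given in array units, the scanner's processed signal after each array's 75th percentile was set to 1500, with a floor at 15. Between 20991 and 24252 probes per array were well above background, and no probe was saturated. All 12 probes of the pathway were well above background on all 8 arrays, and all were tested, among 25971 probes in the comparisons with control and 25972 in the direct one. The cells carried the epithelial label's markers, with 8 of 8 (among them Epcam, Cdh1 and Krt8) above background on every array. With IFN-λ2, 3 of the 8 differed from control, Cdh1 (log2 0.44, limma adjusted p = 0.0278) and Krt19 (0.41, adjusted p = 0.0211) upwards and Cldn3 (-0.63, adjusted p = 0.0104) downwards, and none passed with IFN-β. Of the markers of other cell types, 6 fibroblast genes summed to 12021 to 15218 units in control, 6737 to 8570.1 with IFN-λ2 and 14074 to 15841 with IFN-β, nearly all of it Vim (log2 difference -0.87 for IFN-λ2 against control, limma adjusted p = 0.00763), while Pdgfra stayed at the floor on every array. The 8 leukocyte genes summed to 6282 to 8785 units in control, 3041 to 4688 with IFN-λ2 and 3167 to 11229.5 with IFN-β, most of it Itgam, at 7122 ± 1765 units (SD, n = 2), 2869.6 ± 799 units (SD, n = 3) and 6710.4 ± 4008 units (SD, n = 3) (limma adjusted p = 0.143 and 0.892 against control). Of these genes only Cd74 passed, and it rose with IFN-λ2 (log2 2.24, adjusted p = 1.58e-05), to 742 ± 52.5 units (SD, n = 3) of the sum in that group. Cd3e and Cd74 were also above background on every array, Ptprc on 2 arrays, both of IFN-β, and Itgax was at the floor on every array. The 4 endothelial genes summed to 828 to 1012, 829 to 979 and 919 to 953 units in the same order, nearly all of it Kdr, which was above background on all 8 arrays, as Pecam1 was on 7, while Cdh5 and Tek were at the floor throughout. The part of these markers in the changes below was not tested, and in such bulk samples fewer cells of a type and less RNA per cell cannot be told apart.

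Both interferons were set against the control arrays to describe the response of the pathway to each. As the genes were chosen with earlier results of these data known, the shares of all probes are a scale and not a test. With IFN-λ2 all 12 probes, for all 10 genes, were higher (limma, Benjamini-Hochberg adjusted p under 0.05), against 10% of all probes tested, and 9 probes for 9 genes rose by at least 2-fold, against 2.67%. With IFN-β 10 probes for 8 genes were higher, against 1.44% of all probes tested, and 4 probes for 3 genes (Tap1, Tapbp and Nlrc5) rose by at least 2-fold, against 0.882%. The median log2 difference over the 12 probes was 1.16 with IFN-λ2 and 0.95 with IFN-β, where the medians over all probes tested were 0.000828 and 0.016. For all 12 probes every IFN-λ2 array lay above both control arrays, which held for 24.7% of all probes, and every IFN-β array did too, which held for 15.1%. No probe of the 10 genes was lower in either comparison, against 8.55% of all probes with IFN-λ2 and 0.208% with IFN-β.

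**Figure D1:**
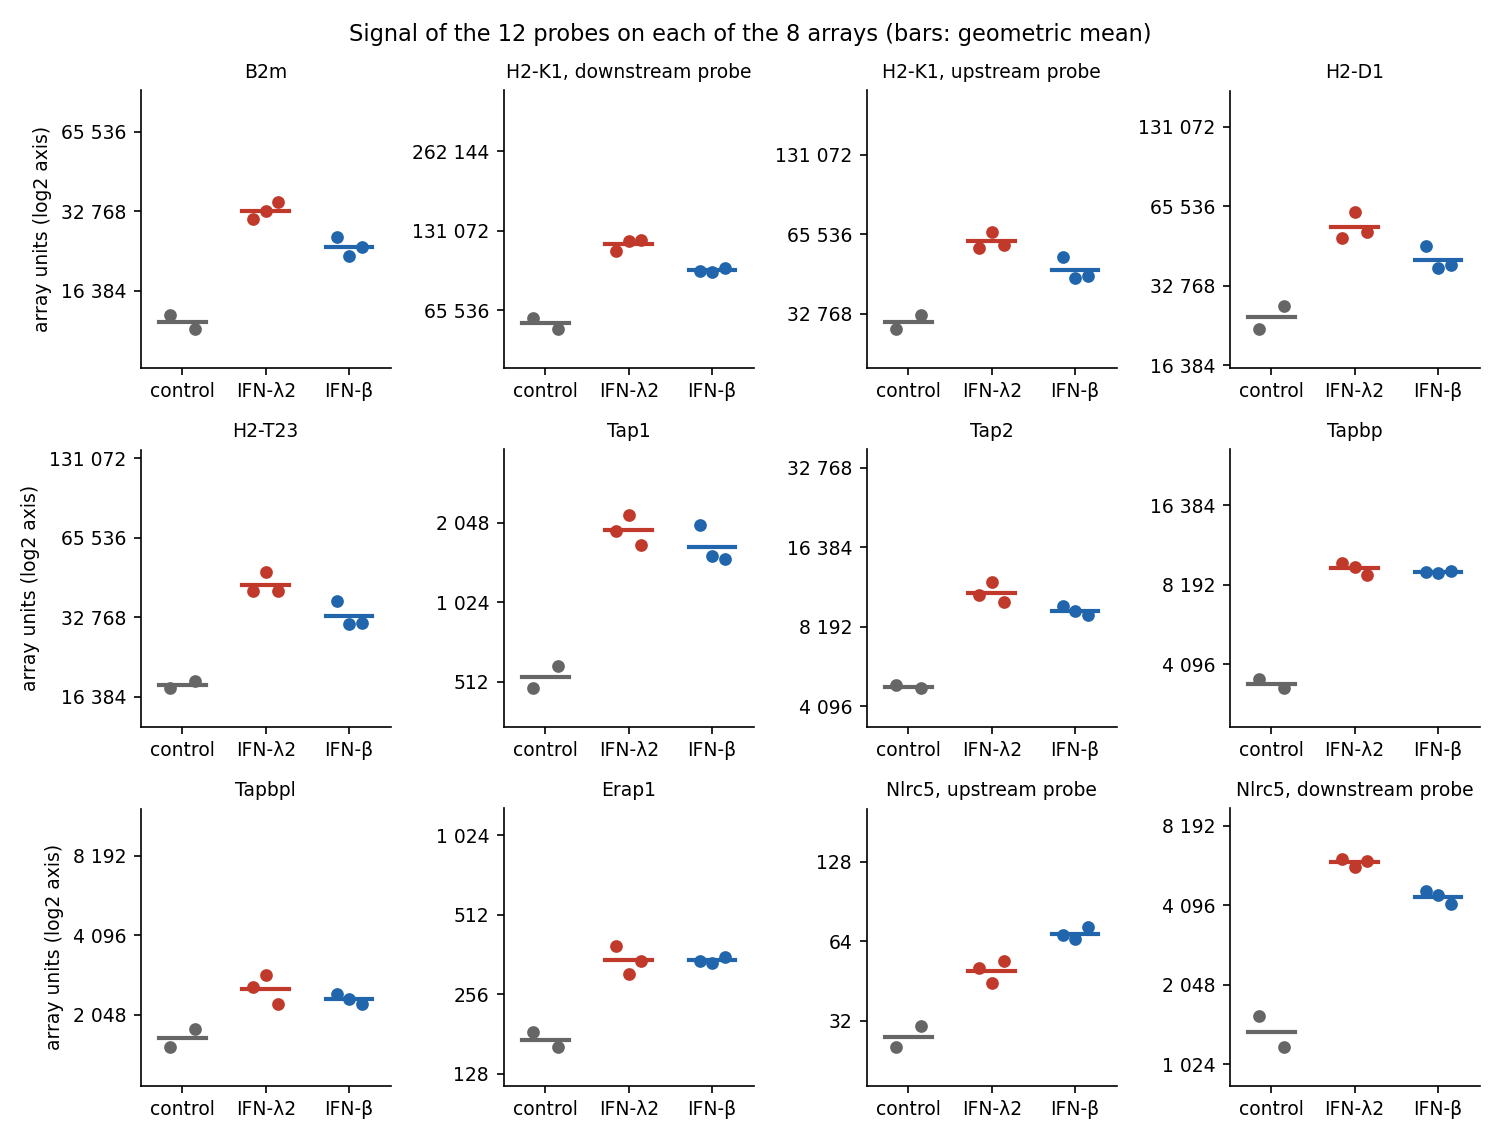
Signal of each of the 12 probes on the 8 arrays, in array units on a log2 axis, with 1 panel a probe, points for single arrays (control grey, n = 2; IFN-λ2 red, n = 3; IFN-β blue, n = 3) and bars at the geometric mean of the group. In all 12 panels the treated arrays lie above both control arrays, and in 7 panels the 3 IFN-λ2 arrays lie above the 3 IFN-β arrays.

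Among the chains of the class I molecule, B2m, the light chain that every classical class I molecule needs, gave 13265 and 11716 units on the control arrays, 30587, 32714 and 35389 on the IFN-λ2 arrays and 26095, 22092 and 23976 on the IFN-β arrays. The groups did not overlap, and IFN-λ2 was the highest, IFN-β intermediate and control the lowest. B2m rose 2.63-fold with IFN-λ2 (95% confidence interval 2.21 to 3.14, limma adjusted p = 0.000314) and 1.93-fold with IFN-β (1.61 to 2.30, adjusted p = 0.00572). The downstream H2-K1 probe, present in 10 copies, read 61401 and 55594 units on the control arrays, 109508, 119774 and 120904 on the IFN-λ2 arrays and 92551, 91588 and 94379 on the IFN-β arrays, again with no overlap between the 3 groups. It rose 2.00-fold with IFN-λ2 (1.75 to 2.27, adjusted p = 0.000365) and 1.59-fold with IFN-β (1.40 to 1.81, adjusted p = 0.00731). H2-K1 encodes a classical heavy chain, and its upstream probe gave the same order of groups. That probe read 28667 and 32372 units on the control arrays, 58223, 67044 and 59721 on the IFN-λ2 arrays and 53898, 44662 and 45694 on the IFN-β arrays, a log2 difference of 1.01 with IFN-λ2 (adjusted p = 0.00173) and of 0.65 with IFN-β (adjusted p = 0.0489), so both probes of the gene gave near-equal changes.

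H2-D1, the other classical heavy chain measured here, read 22471 and 27562 units on the control arrays, 49689.7, 62586 and 52164 on the IFN-λ2 arrays and 46374, 38348 and 39117 on the IFN-β arrays. Its IFN-λ2 arrays lay above its IFN-β arrays and both above the control arrays, whose pair differed by more than those of B2m. It rose 2.19-fold with IFN-λ2 (1.72 to 2.79, limma adjusted p = 0.00294). With IFN-β the log2 difference was 0.72 (0.38 to 1.07), which did not pass the adjusted test (adjusted p = 0.0821) although all 3 arrays were above both controls. H2-T23, a nonclassical heavy chain that is a ligand of receptors on NK cells, read 17658 and 18703 units on the control arrays, 41206, 48570.1 and 41168 on the IFN-λ2 arrays and 37614, 30973 and 31198 on the IFN-β arrays. None of its groups overlapped, with the order IFN-λ2, IFN-β, control. It rose 2.39-fold with IFN-λ2 (1.97 to 2.92, adjusted p = 0.000816) and 1.82-fold with IFN-β (1.50 to 2.22, adjusted p = 0.0165).

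The transporter genes rose more strongly in Tap1 than in Tap2, though this difference between probes was not tested. Tap1 read 484 and 586 units on the control arrays, 1908, 2186 and 1683 on the IFN-λ2 arrays and 2012, 1525 and 1491 on the IFN-β arrays. The treated groups overlapped each other, and all 6 treated arrays were more than 2-fold above the higher control. Its change was 3.59-fold with IFN-λ2 (2.70 to 4.79, limma adjusted p = 0.000786) and 3.12-fold with IFN-β (2.34 to 4.15, adjusted p = 0.00396). Tap2, the other chain of the transporter, read 4910.2 and 4801 units on the control arrays, 10784, 12099 and 10166 on the IFN-λ2 arrays and 9778, 9365 and 9049 on the IFN-β arrays, with the treated groups just apart. Its change was 2.26-fold with IFN-λ2 (adjusted p = 0.000314) and 1.93-fold with IFN-β (adjusted p = 0.00208).

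Of the peptide editors, Tapbp, which holds the empty class I molecule at the transporter, read 3597 and 3331 units on the control arrays, 9914, 9554 and 8929 on the IFN-λ2 arrays and 9180.0, 9113 and 9231 on the IFN-β arrays. All treated arrays fell in one narrow band that the control arrays did not reach. Tapbp rose 2.73-fold with IFN-λ2 (2.42 to 3.09, limma adjusted p = 4.66e-05) and 2.65-fold with IFN-β (2.34 to 3.00, adjusted p = 7.61e-05), and passed the test in both comparisons under all 20 alternatives run. Tapbpl, the tapasin relative that works apart from the transporter, read 1546 and 1812 units on the control arrays, 2613, 2888 and 2261 on the IFN-λ2 arrays and 2447, 2358 and 2258 on the IFN-β arrays. Its changes were the smallest of the 12 probes in both comparisons, 1.54-fold with IFN-λ2 (1.26 to 1.88, adjusted p = 0.0152) and a log2 difference of 0.49 with IFN-β that did not pass (adjusted p = 0.154). The Tapbpl call with IFN-λ2 was lost without control replicate 2 (log2 0.51, adjusted p = 0.0803) and without IFN-λ2 replicate 1 (log2 0.61, adjusted p = 0.0542), and with the slide as a block (adjusted p = 0.0598).

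Erap1, the peptide trimming enzyme of the endoplasmic reticulum, read 184 and 162 units on the control arrays, 390.4, 307 and 343 on the IFN-λ2 arrays and 343, 336 and 354 on the IFN-β arrays. The 2 treated groups lay over each other and above control. It rose 2.00-fold with IFN-λ2 (1.66 to 2.42, limma adjusted p = 0.00179) and 2.00-fold with IFN-β (1.65 to 2.41, adjusted p = 0.00615). Without control replicate 3 the IFN-β call was lost (log2 0.90, adjusted p = 0.0542), as it was with normexp (log2 0.78, adjusted p = 0.0526).

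Nlrc5, the class I transactivator, had the largest change of the 12 probes in its downstream probe, which read 1555 and 1189 units on the control arrays, 6119.7, 5699 and 6035 on the IFN-λ2 arrays and 4653, 4463 and 4133 on the IFN-β arrays. The 3 groups did not overlap, and the change was 4.38-fold with IFN-λ2 (3.58 to 5.35, limma adjusted p = 7.61e-05) and 3.24-fold with IFN-β (2.65 to 3.97, adjusted p = 0.000418). The upstream probe read 25.4 and 30.4 units on the control arrays, 50.6, 44.3 and 53.9 on the IFN-λ2 arrays and 67.5, 65.3 and 72.3 on the IFN-β arrays. Here too the groups did not overlap, but IFN-β was the highest and IFN-λ2 intermediate. Its change was 1.78-fold with IFN-λ2 (1.47 to 2.16, adjusted p = 0.00430) and 2.46-fold with IFN-β (2.03 to 2.98, adjusted p = 0.00162). Its readings were within 5 times the floor of 15, and a normexp background correction (offset of 50) took its log2 differences to 0.53 (adjusted p = 0.0813) and 0.51 (adjusted p = 0.503), while a floor of 50 took that with IFN-λ2 to 0.042 (adjusted p = 0.713) and that with IFN-β to 0.45 (adjusted p = 0.0181). Both control arrays and the IFN-λ2 array at 44.3 units lay under that floor and the other IFN-λ2 arrays just above it. A floor of 50 could therefore hardly leave a difference with IFN-λ2.

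**Figure D2:**
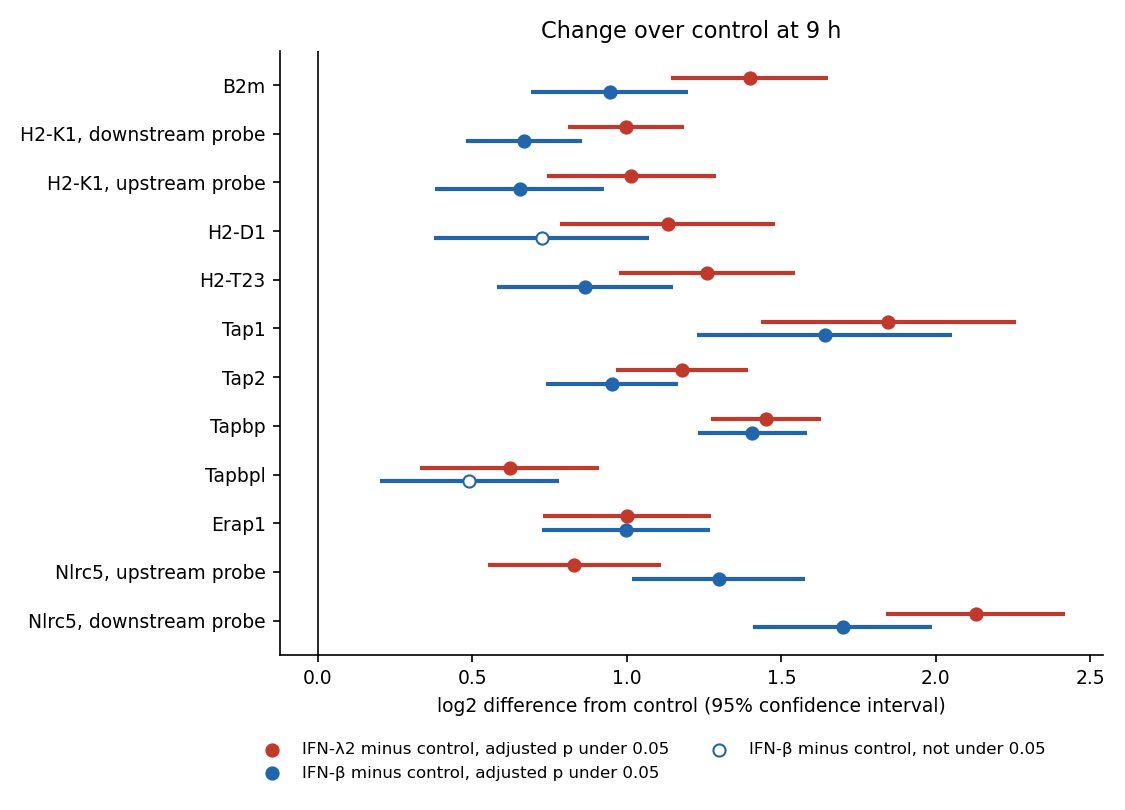
Log2 difference from control for the 12 probes with 95% confidence intervals from limma, IFN-λ2 in red and IFN-β in blue. Filled points passed an adjusted p of 0.05 and open points (H2-D1 and Tapbpl with IFN-β) did not, and all 24 intervals lie above 0.

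The replicate number of an array was also its slide, so the slides were taken as a block. With the block 11 of the 12 probes stayed higher with IFN-λ2 and 5 with IFN-β, which were Tap1 (adjusted p = 0.0489), Tap2 (0.0205), Tapbp (0.00270) and both Nlrc5 probes (0.00736 and 0.00317). B2m (adjusted p = 0.0752), H2-K1 (0.0521 downstream and 0.219 upstream), H2-T23 (0.127) and Erap1 (0.0625) then missed the threshold with IFN-β, at log2 differences of 0.94, 0.69, 0.63, 0.84 and 0.95. Within each of the 2 slides that hold a control array, the log2 difference from control was above 0 for all 12 probes with either interferon, for example 1.30 to 1.59 for B2m with IFN-λ2 and 0.74 to 1.03 with IFN-β. Each group had its own position on the slides, so position and group cannot be told apart. The IFN-β call of H2-T23 was lost without control replicate 2 (log2 0.82, adjusted p = 0.105) or 3 (log2 0.91, adjusted p = 0.0842), and that of the upstream H2-K1 probe without any 1 of the 8 arrays (adjusted p from 0.0687 to 0.204).

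The cytokines were then compared directly. IFN-λ2 gave higher signals than IFN-β for B2m and the downstream H2-K1 probe, 2 of the 12 probes against 5.53% of all probes tested, and a lower signal for the upstream Nlrc5 probe, 1 of 12 against 5.68%. For 7 probes of 6 genes (B2m, both H2-K1 probes, H2-D1, H2-T23, Tap2 and the downstream Nlrc5 probe) every IFN-λ2 array lay above every IFN-β array, which held for 16% of all probes. Markers of cell types also differed between the same arrays, Krt19 by 0.58 (limma adjusted p = 0.00552), Vim by -1.01 (adjusted p = 0.00418) and Cd74 as given with the class II genes, and their part was not tested. The median log2 difference over the 12 probes was 0.28, where that over all probes tested was -0.015. B2m differed by a log2 of 0.45 ± 0.10 (SE, interval 0.23 to 0.68, limma adjusted p = 0.0272) and the downstream H2-K1 probe by 0.33 ± 0.071 (0.16 to 0.50, adjusted p = 0.0289). Both differences were above 0 on each of the 3 slides, 0.23 to 0.57 for B2m and 0.24 to 0.39 for H2-K1. Same-numbered IFN-λ2 and IFN-β arrays deviated together, and with the slide as a block neither passed (adjusted p = 0.0812 for B2m and 0.0650 for H2-K1). The H2-K1 call was also lost without any 1 of the 6 treated arrays (adjusted p from 0.0502 to 0.0919), and that of B2m without any of them but IFN-β replicate 1 (0.0554 to 0.0873).

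The other heavy chain probes lay at differences of the same size that missed the adjusted threshold. The upstream H2-K1 probe differed by 0.36 (0.12 to 0.61, limma adjusted p = 0.0726), H2-D1 by 0.41 (0.10 to 0.72, adjusted p = 0.102) and H2-T23 by 0.39 (0.14 to 0.65, adjusted p = 0.0626). On slide 1 all 3 of these differences were at their smallest, and without IFN-β replicate 1, 1 of the 2 arrays on that slide, H2-T23 passed (log2 0.49, adjusted p = 0.0349) and so did the upstream H2-K1 probe (log2 0.45, adjusted p = 0.0427). Each of the 2 passed under 2 of the 20 alternatives, the other being the trended variance prior. The loading factors gave smaller values. Tap2 differed by 0.23 (0.035 to 0.42, adjusted p = 0.135), Tap1 by 0.21 (-0.16 to 0.58, adjusted p = 0.470) and Tapbpl by 0.13 (-0.13 to 0.39, adjusted p = 0.520). Tapbp differed by 0.044 and Erap1 by 0.00337, and their intervals (-0.11 to 0.20 and -0.24 to 0.25) leave out a difference of the size of the B2m mean, though no test compared the genes with each other.

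The Nlrc5 probes opposed each other in this comparison. The downstream probe was higher with IFN-λ2 by 0.43 (0.17 to 0.69), which just missed the threshold (limma adjusted p = 0.0502; 0.0797 with the slide as a block), and above 0 on 3 of 3 slides. It passed without either control array (adjusted p = 0.0192 each), since they enter only through the shared spread. It passed under 8 of the 20 alternatives in all, among them the deposited table (adjusted p = 0.0420). The upstream probe was lower by -0.47 (-0.72 to -0.22, adjusted p = 0.0340; 0.0220 with the block) and below 0 on 3 of 3 slides. That call was lost without any of the treated arrays but IFN-λ2 replicate 3 (adjusted p from 0.0628 to 0.113). Under normexp background correction, which added an offset of 50 to every signal, the sign turned (0.028, adjusted p = 0.931). The same correction moved the median over all probes in this comparison from -0.015 to 0.091, so this probe stayed below that median. No direction between the cytokines is given for Nlrc5 as a gene.

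**Figure D3:**
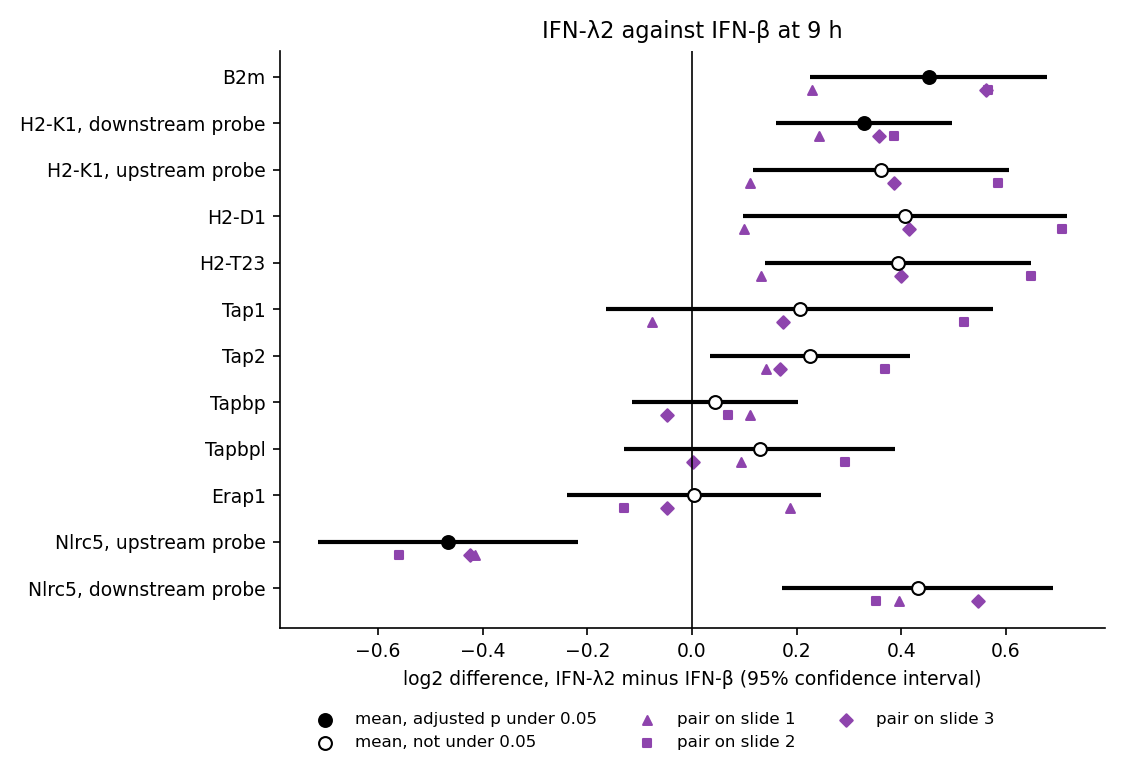
Log2 difference of IFN-λ2 minus IFN-β for the 12 probes, with the limma mean and its 95% confidence interval in black (filled where the adjusted p was under 0.05) and the pair of arrays of each slide in purple. The chains of the class I molecule lie to the right of 0 on all 3 slides, as do Tap2, the downstream Nlrc5 probe and, at its lowest by only 0.00178, Tapbpl. Tapbp and Erap1 lie about 0 and the upstream Nlrc5 probe lies to the left.

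The genes around the pathway were read from lists of textbook members. Of all probes tested, 10% were higher and 8.55% lower with IFN-λ2 than control, 1.44% and 0.208% with IFN-β, and 5.53% and 5.68% in the direct comparison, and the counts of each list stand against these shares. All 5 genes of the immunoproteasome and its activator, which supply the peptides, rose with IFN-λ2 and all 5 with IFN-β, and 2 of 5 were above their IFN-β level under IFN-λ2, with medians of 1.61, 1.66 and 0.09 for the 3 comparisons. Psmb9 went from 1608 ± 0.955 units (SD, n = 2) in control to 9846 ± 597 units (SD, n = 3) with IFN-λ2 and 5831 ± 666 units (SD, n = 3) with IFN-β. Psmb8, another catalytic subunit, went from 2465 ± 22.6 units (SD, n = 2) to 13046 ± 1049.7 units (SD, n = 3) and 8443 ± 454 units (SD, n = 3). Their direct log2 differences were 0.76 (limma adjusted p = 0.00413) and 0.63 (adjusted p = 0.00429).

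None of the 10 general chaperones and partners of the endoplasmic reticulum rose with either interferon, a count near the 10% and 1.44% of all probes. With IFN-λ2, 3 of 10 fell, against 8.55% of all probes tested, and with IFN-β none did (medians -0.10, -0.064 and -0.039). Pdia3, the disulfide isomerase that is bound to tapasin, fell by 0.64 on the log2 scale with IFN-λ2 (SE 0.12, limma adjusted p = 0.0122). Calr, the lectin chaperone of the loading complex, went from 35358 ± 1223 units (SD, n = 2) to 23734 ± 663 units (SD, n = 3) (log2 -0.58, adjusted p = 0.00477) and was also lower than with IFN-β (log2 -0.37, adjusted p = 0.0236). With IFN-β their log2 differences were -0.31 and -0.21 (adjusted p = 0.367 and 0.392).

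Of 20 other class I and class I-like genes, 17 were tested (on 16 probes, since H2-Q4 and H2-gs10 share 1), of which 9 rose and 2 fell with IFN-λ2 and 2 rose with IFN-β (medians 0.67, 0.24 and 0.13). Directly compared, 3 were higher and 2 lower with IFN-λ2. The 2 that fell with IFN-λ2 and the 2 lower directly are near the shares of all probes (8.55% and 5.68%). H2-M2, a nonclassical heavy chain gene, read 28.9 ± 5.60 units (SD, n = 2) in control, 100.2 ± 5.48 units (SD, n = 3) with IFN-λ2 and 33.9 ± 8.53 units (SD, n = 3) with IFN-β (direct log2 1.59, limma adjusted p = 0.00333). Its probe was dim and above background on 2 of the 3 IFN-β arrays, and the direct log2 difference was 1.03 with normexp (adjusted p = 0.00408); it also passed with a floor of 50 units (adjusted p = 0.000638). H2-Q8 (direct log2 1.12, adjusted p = 0.00241) and H2-Q7 (0.53, adjusted p = 0.0275) were the other genes higher with IFN-λ2. Cd1d1 and Cd1d2, which present lipids in place of peptides, fell with IFN-λ2 by log2 -1.78 (adjusted p = 0.0136) and -0.62 (adjusted p = 0.0421), and were lower than with IFN-β by -1.40 (adjusted p = 0.0296) and -0.69 (adjusted p = 0.0269). Both were dim, and with normexp neither passed: Cd1d1 differed from control by -0.62 (adjusted p = 0.0911) and from IFN-β by -0.35 (adjusted p = 0.259), and for Cd1d2 the sign turned (0.084, adjusted p = 0.747, and 0.05, adjusted p = 0.856). Under normexp the medians over all probes were themselves 0.11 and 0.091 in these comparisons. With a floor of 50 Cd1d1 passed against control (-1.18, adjusted p = 0.0474) and not against IFN-β (-0.81, adjusted p = 0.132), and the Cd1d2 readings lay at or near that floor. The H2-Q genes are near-identical in sequence, so their probes may share transcripts.

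Of 13 factors that act on class I promoters, 5 rose under IFN-λ2 and 4 under IFN-β, and none passed in the direct comparison (limma, medians 0.12, 0.22 and 0.058), where 5.53% of all probes were higher and 5.68% lower, so that 0 of 13 is near the background. Stat2, a signal transducer of interferon receptors, rose by log2 2.16 with IFN-λ2 (adjusted p = 7.38e-05) and 1.73 with IFN-β (adjusted p = 0.000392). Of 10 class II pathway genes 5 were tested, of which 3 rose with IFN-λ2, none with IFN-β, and 2 exceeded their IFN-β level under IFN-λ2 (medians 0.49, 0.21 and 0.43), against 10%, 1.44% and 5.53% of all probes higher, so that 0 of 5 with IFN-β is near the background. These 2 were Cd74, the invariant chain, at 157 ± 12.2 units (SD, n = 2), 742 ± 52.5 units (SD, n = 3) and 191 ± 8.19 units (SD, n = 3) in control, IFN-λ2 and IFN-β (direct log2 1.96, adjusted p = 0.000141), and H2-DMb1 (0.48, adjusted p = 0.00430). Ciita, the class II counterpart of Nlrc5, differed from control by -1.60 with IFN-λ2, where 2 of 3 arrays were above background, and did not pass (adjusted p = 0.114; log2 -0.32 with normexp and -0.46 with a floor of 50). Of 8 reference genes 1, Gusb, fell with IFN-λ2 (log2 -0.25, adjusted p = 0.0373). None passed with IFN-β, where Gusb differed by -0.29 (adjusted p = 0.112), and Hprt differed by 0.25 and 0.13 without passing (adjusted p = 0.0631 and 0.571).

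**Figure D4:**
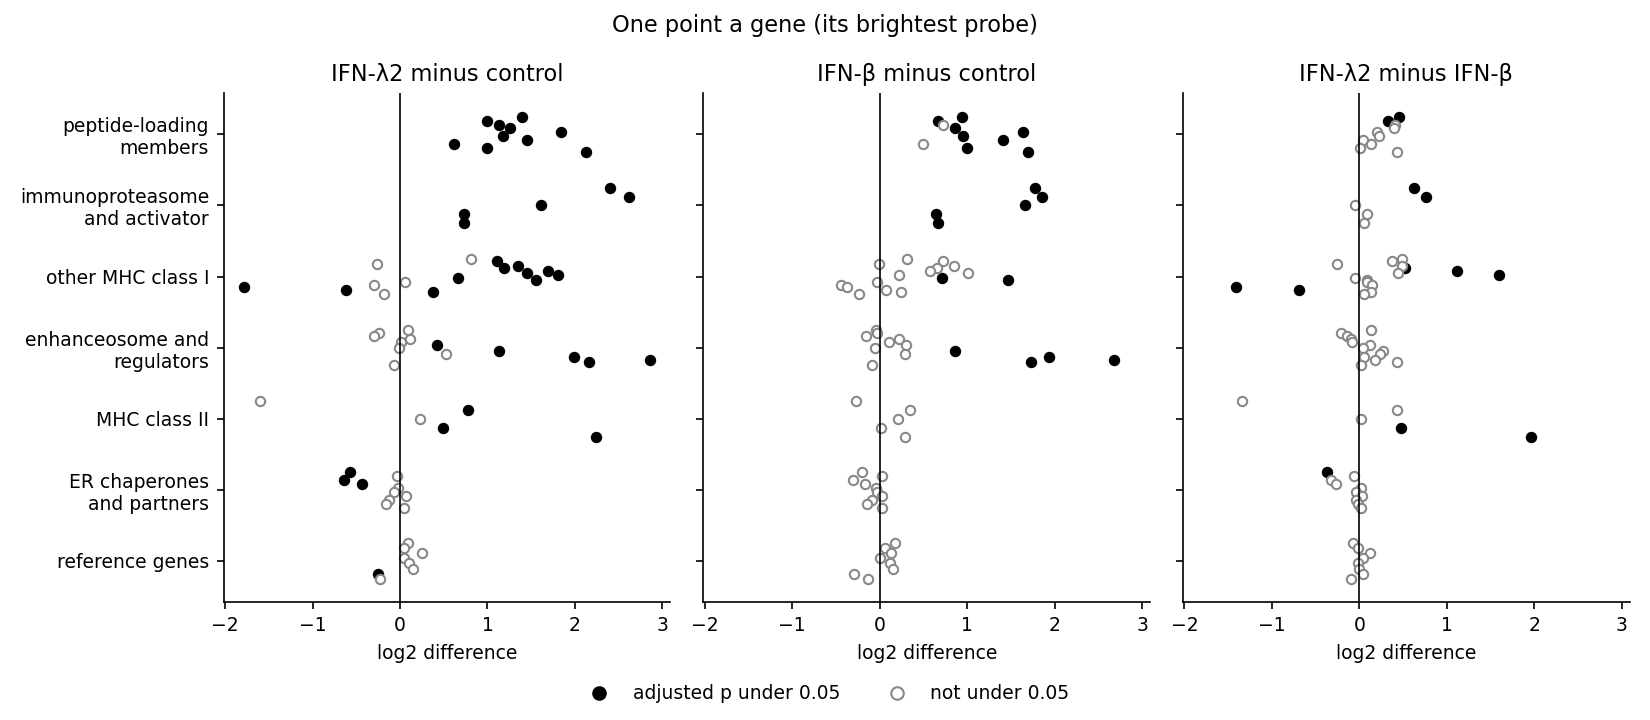
Log2 differences of single genes (brightest probe of each) in the 3 comparisons, for the 10 genes of the pathway and 6 lists around it, filled where the limma adjusted p was under 0.05. The peptide loading and immunoproteasome rows lie to the right of 0 over control with both interferons, while the row of endoplasmic reticulum chaperones lies about or below 0.

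To describe the shape of the response, the log2 signals of 10 probes, the brightest of each gene, were averaged on each array, which gave 11.99 and 11.97 for control, 13.27, 13.35 and 13.23 for IFN-λ2 and 13.11, 12.97 and 12.97 for IFN-β. Each gene followed the mean of the other 9 with a Pearson r from 0.926 (Tapbpl) to 0.996 (Tap2) over the 8 arrays, which share 3 groups. Among 20236 other probes well above background on all arrays, 248 had an r above 0.95 with the mean. The 5 nearest were LOC547349, annotated as similar to an MHC class I precursor (r = 0.998), the interferon-inducible GTPase genes Gm4951 and Iigp1 (both 0.997), Apol9a (0.997) and Psmb8 (0.997). LOC547349 read from 289 to 304 units in control, 1510.0 to 1900.5 with IFN-λ2 and 1198 to 1328 with IFN-β. A likeness over 8 arrays in 3 groups describes mainly the order of the group means.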

How the data were processed

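The deposited scanner files hold background-corrected processed signal intensity per feature, made by the authors with Agilent Feature Extraction 10.7.3.1 per the labels, from 1-color Cy3 arrays. The deposited value table is these intensities times 1 constant per array (0.908 to 0.930 of the units used here over the 12 probes); it was an alternative. Following the study's methods, features flagged as outliers, beyond 1.42 interquartile ranges of their copies or with a pixel CV over 0.5 were left out (313 to 424 per array), copies were averaged geometrically, the 75th percentile was set to 1500 and values under 15 to 15. Log2 values of probes above that floor on at least 2 arrays were fitted with limma 3.58.1 (R 4.3.3) over all 8 arrays, with 3 group means and no block, and adjusted by Benjamini-Hochberg over all probes tested. The 8 arrays limit the precision. The RNA kit is given differently in the labels and the methods. Control replicate 1 was not analysed here.

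The fit was tested on simulated shifts. Same-numbered IFN-λ2 and IFN-β arrays correlated in their deviations from the group means (r = 0.178, 0.255 and 0.297), and the scanner files put each number on 1 slide. Control arrays did not pair (r = 0.00119 and -0.00967 with IFN-λ2, 0.101 and -0.0568 with IFN-β). The 10 genes, the lists and the motifs were chosen with earlier results of these data known. Named besides the 10 genes were, per list, up to 5 genes that passed in the direct comparison and the 2 largest changes over control, and the 5 nearest patterns, of which 1 gene is not reported here. A gene with several probes was led by the brightest. Promoters came from RefSeq.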

Additional observations from a re-analysis of the deposited data

How the results depend on the processing

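Over 20 alternatives the 36 differences of single probes gave 720 values, of which 630 kept direction and side of the threshold, 74 lost their call, 13 gained one and 3 turned sign. Of the 24 differences over control none turned sign under any of them. The count of 12 probes higher with IFN-λ2 than control stayed between 8 (the methods' t-test after Benjamini-Hochberg) and 12. The count of 10 with IFN-β fell to 5 with the replicate block, 6 with only the groups compared, 1 with the methods' t-test and 4 with a 2-fold change added, was 7 with normexp, and ranged from 7 to 9 without single arrays. The 2 probes higher with IFN-λ2 than IFN-β became 0 with normexp, 0 with the replicate block, 0 with a 2-fold change, 1 without the filter on dim probes and 5 with a variance prior that follows the signal, was 3 with the deposited table, no feature left out, only probes well above background on 2 arrays or only the groups compared, and ranged from 0 to 3 without single arrays. The 1 lower probe, upstream Nlrc5, became 0 with normexp, quantile normalization, no filter on dim probes, the trended prior, the t-test, a 2-fold change or the brightest probe only, and ranged from 0 to 1 without single arrays. Sign turned for upstream Nlrc5 with normexp (0.028) and for Erap1 without IFN-λ2 replicate 1 (-0.086) or IFN-β replicate 2 (-0.015), its values without single arrays running from -0.086 to 0.088. Normexp, run with an offset of 50, moved the median log2 difference of all probes from 0.000828 to 0.11 for IFN-λ2 against control, where the 12 probes with IFN-λ2 lay between 0.53 and 2.05. For IFN-λ2 against IFN-β it moved that median from -0.015 to 0.091. The causes of these changes were not tested. For the 12 probes the replicate block changed no call besides those given with the results, and its values are not reported for the genes of the lists and markers.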
